A study of Mus musculus with 4 samples.

Results

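Contractile genes of smooth muscle and myofibroblasts were examined in cultured mouse osteoblasts, the cells that lay down bone matrix. The set comprised 10 genes (Acta2, Actg2, Acta1, Tagln, Cnn1, Tpm1, Tpm2, Myl9, Myh11 and Fhl1) of 18193 genes with a probe set annotated to a single symbol. Every probe set whose annotation named a member alone was taken, which gave 20 of 34945 probe sets. The series addressed insulin receptor signalling in osteoblasts and held 4 Affymetrix arrays in 4 groups of 1 array. They were a control array labelled 0 h and arrays of cells given 10 nM insulin for 6, 12 or 24 h after serum starvation. By the growth protocol all the osteoblasts lacked the IGF-1 receptor, whereas the genotype entry of every array names IGF-1 itself as null. The labels do not settle which of them holds, and say nothing of how the deletion was made or of how many animals or cultures an array stands for. There were no replicates, so no difference below has an error or a p-value, and precision is limited by having 1 array per group. The control was read at 0 h alone, and the labels do not say whether its cells came from the same isolate as the others, so insulin, hours in culture and a different isolate cannot be told apart.

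Smooth muscle cells and myofibroblasts contract by sliding filaments of muscle actin over myosin II. Tropomyosins lie along the actin filament, calponin and transgelin bind it, and phosphorylation of the regulatory light chain switches the myosin on. Most of these genes are classical targets of serum response factor (SRF), which binds the CArG box of their promoters together with myocardin or a myocardin-related transcription factor (MRTF). TGF-beta and mechanical tension are known inducers of the programme, and Acta2 is also used as a marker of mesenchymal progenitors that can form bone.

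The 0 h array stood apart from the insulin arrays in features that do not belong to a contractile programme. Eif2s3y, a Y-linked translation factor gene, had an intensity of 12.2 at 0 h and between 295 and 326 on the insulin arrays, and Xist, a noncoding RNA that coats the silenced X, had 109 at 0 h and between 1278 and 1636 on the insulin arrays. Igf1r, the gene named as missing in the growth protocol, had 388, 259, 265 and 319 at 0, 6, 12 and 24 h, and Insr, the insulin receptor gene, had 369, 181, 206 and 215. The labels do not say which part of a gene was deleted, so the Igf1r signal does not check the genotype. The 3′ to 5′ signal ratio of the control probe sets, a measure of RNA integrity, was 1.30, 1.26, 1.41 and 1.39 for Actb and 0.897, 0.964, 0.995 and 1.03 for Gapdh at 0, 6, 12 and 24 h. Grouped by chromosome, the median over genes of the mean log2 difference from 0 h ran from -0.24 on chromosome 8 to 0.33 on chromosome 4 among autosomes. All 3 differences from 0 h share that array, and the part of these features in the differences of the contractile genes was not tested.

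Promoter sequence was available for 7 member genes in RefSeq windows of the mouse assembly GRCm38.p6, each running from 250 bases before to 50 bases after an annotated start. The CArG box was searched as C, C, then 6 letters that are each A or T, then G, G, a pattern that reads the same way on both strands. A looser form, with 1 of the 6 core letters being C or G, was searched as well, because the well-known elements of the Acta2 promoter are of that kind. The strict box was in 3 of the 8 windows of member genes (Acta1, Myl9 and Fhl1) and in 1.63% of all 32851 windows. The looser form was also in 3 of the 8 windows (Acta2, Acta1 and Myl9) and in 8.5% of all windows. The windows of Cnn1, Tpm1 and Tpm2 and the second window of Fhl1 held neither form, which says only that these letters are not in those windows. The sites are shown because SRF binding to such boxes is the textbook link among these genes. Each line gives 50 bases, 5′ to 3′ on the strand of the gene, with the box in capitals and 20 bases on either side.
Acta2, box from 84 bases before the start: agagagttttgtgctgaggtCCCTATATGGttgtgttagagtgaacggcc
Acta2, box from 34 bases before the start: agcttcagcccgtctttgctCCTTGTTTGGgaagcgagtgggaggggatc
Acta1, box from 205 bases before the start: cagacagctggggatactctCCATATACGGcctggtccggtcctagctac
Acta1, box from 154 bases before the start: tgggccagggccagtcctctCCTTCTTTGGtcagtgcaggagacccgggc
Acta1, box from 73 bases before the start: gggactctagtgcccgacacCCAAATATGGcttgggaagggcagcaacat
Myl9, box from 161 bases before the start: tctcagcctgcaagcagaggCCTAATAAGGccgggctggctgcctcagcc
Myl9, box from 99 bases before the start: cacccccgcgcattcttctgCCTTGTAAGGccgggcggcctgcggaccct
Fhl1, box from 102 bases before the start: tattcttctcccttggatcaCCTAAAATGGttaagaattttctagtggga
The Acta2 stretches lie on the minus strand at chr19:34255428-34255477 and chr19:34255378-34255427, and those of Acta1 on the minus strand at chr8:123894951-123895000, chr8:123894900-123894949 and chr8:123894819-123894868. The Myl9 stretches lie on the plus strand at chr2:156775283-156775332 and chr2:156775345-156775394, and that of Fhl1 on the plus strand at chrX:56779561-56779610. No binding was measured in this study, so a box here is a description of sequence only.

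Values below are RMA intensities on a linear scale as deposited. A probe set was called above the filter where its mean log2 intensity over the 4 arrays reached the median of all probe sets, which corresponds to an intensity of 66.2. Of the 20 member probe sets 16 were above the filter and 4 below it. Only 11 exceeded the filter value on all 4 arrays, and another 5 exceeded it on the insulin arrays but not at 0 h, so that these 5 had to be higher on the insulin arrays to be kept. Every member gene had at least 1 probe set above the filter. At least 2-fold higher than at 0 h were 15 of all 20 probe sets at 6 h, 15 at 12 h and 16 at 24 h, against 6.06%, 6.78% and 6.52% of all 34945 probe sets. Above the filter the counts were 14, 14 and 15 of 16, against 9.55%, 10.4% and 10.0% of 19910, and among the 11 probe sets bright on all arrays they were 9, 9 and 10. The share over all probe sets bright on all 4 arrays was not computed, so these last counts have no background beside them. No member probe set was 2-fold lower at any time. Of probe sets above the filter 4.99%, 6.18% and 5.72% were 2-fold lower at the 3 times, and without the filter 3.78%, 4.61% and 4.29%. With the median difference of each chromosome removed, 14 of the 16 probe sets were 2-fold higher at each time. That setting raised the log2 difference at 12 h from 3.79 to 4.01 for Acta1 and from 2.08 to 2.25 for Acta2, and lowered it from 6.36 to 6.12 for Tagln, from 6.33 to 6.09 for Cnn1, from 2.45 to 2.08 for Tpm2 and from 1.51 to 1.27 for Tpm1.

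The muscle actins came first among the members by role. Actg2, the gamma actin of visceral smooth muscle, is read by 1 probe set, which had an intensity of 30.1 at 0 h and of 2873, 3111 and 2723 at 6, 12 and 24 h. It was below the filter value at 0 h and far above it on the insulin arrays, which differed from one another by at most 1.14-fold. The ratios to 0 h were 95.6, 103 and 90.6. With the 0 h value raised to the filter value they were 43.4, 47.0 and 41.1. Acta1, the alpha actin of skeletal muscle, had 130.2 at 0 h and 1712, 1802 and 1626 on the insulin arrays, ratios of 13.2, 13.8 and 12.5. Its 0 h value lay above the filter value.

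Acta2, the smooth muscle alpha actin that defines myofibroblasts, was well above the filter value at 0 h by its main probe set and below it by the others. The main probe set (1416454_s_at) had 5705 at 0 h and 22597, 24118 and 23002 at 6, 12 and 24 h, which is 3.96, 4.23 and 4.03-fold higher. These insulin values lay at percentiles of 99.96 to 99.98, and the highest value deposited for any probe set was 31292. The ratio of a probe set this bright at 0 h is therefore bounded, and its rank below Actg2 and Acta1 partly reflects that bound. The suffix of this probe set marks probes that can match transcripts of more than a single gene, and the actins are nearly identical in coding sequence. The second probe set (1444105_at) carries no such suffix and had 30.2 at 0 h and 258, 291 and 252 on the insulin arrays, ratios of 8.55, 9.64 and 8.35, or 3.90, 4.40 and 3.81 with the 0 h value raised to the filter value. The last (1456658_at) was below the filter, with 23.9 at 0 h and 66.5, 71.4 and 62.6 on the insulin arrays. All 3 probe sets were highest at 12 h and lowest at 0 h.

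**Figure D1:**
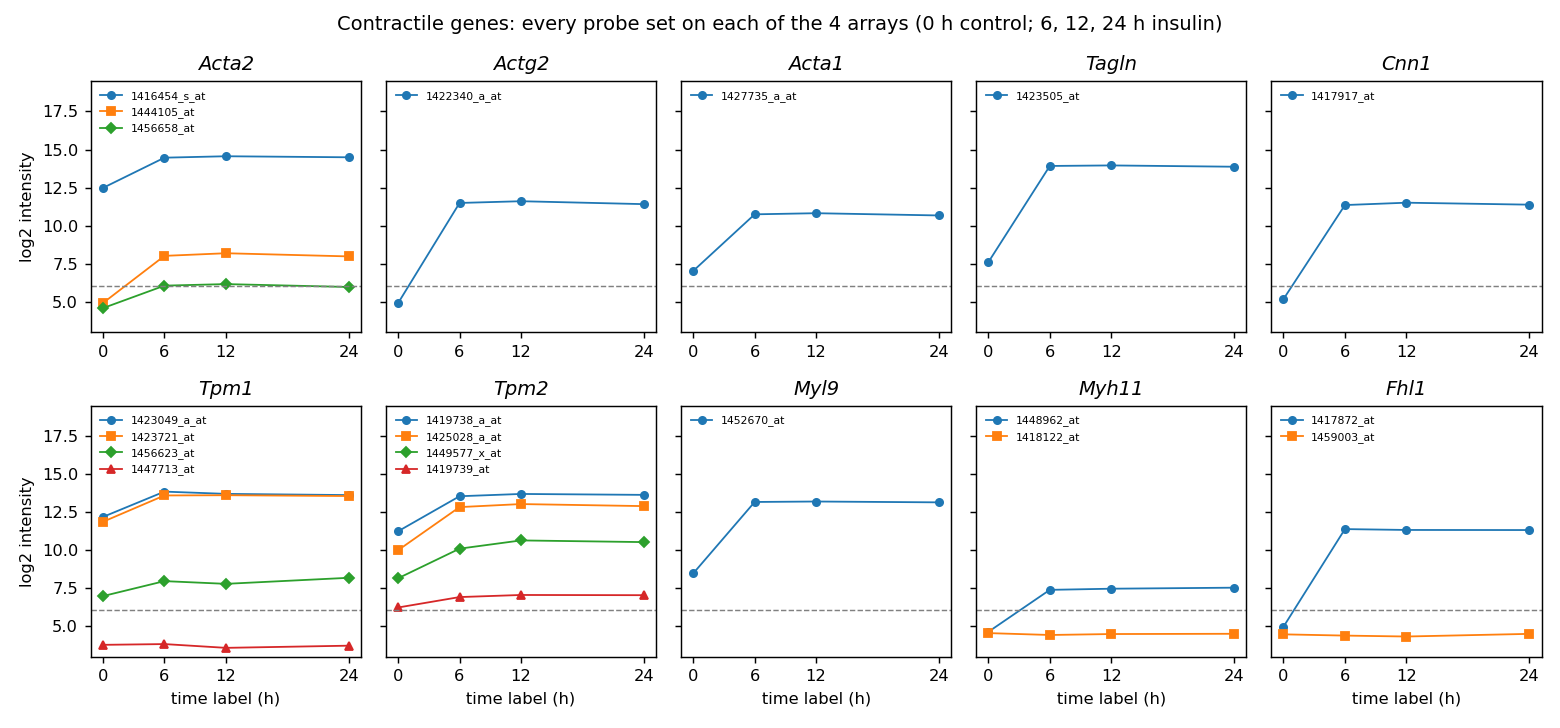
Log2 intensity (vertical axis) of each of the 20 member probe sets on the 4 arrays, placed by their time label in hours (0 h is the control array, 6, 12 and 24 h the insulin arrays). Each line is a probe set, each point a single array, and the dashed line the filter value of 66.2. Most lines step up between the 0 h array and the 6 h array and run level across the insulin arrays, while the dim second probe sets of Myh11 and Fhl1 and the dimmest of Tpm1 lie below the filter on all arrays.

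The actins outside the member set differed from 0 h by less than the member actins. The cytoplasmic actin genes Actb and Actg1, which serve the cytoskeleton of all cells, had 21862, 23582, 23243 and 23592 and 18369, 21114, 21544 and 21412 at 0, 6, 12 and 24 h. Their log2 differences from 0 h were between 0.09 and 0.11 for Actb and between 0.20 and 0.23 for Actg1, and a second Actb probe set pointed the other way. The highest value deposited for any probe set was 31292, and 2-fold the 0 h value of Actb or of Actg1 would exceed it. A call at 2-fold higher was therefore out of reach for Actb and Actg1. Actc1, the cardiac alpha actin, had 75.7, 85.6, 112 and 107, or at most 1.48-fold above 0 h. So 3 of the 6 actin genes, those of smooth and skeletal muscle, were 2-fold higher at all 3 times. Of the others only Actc1 could have passed 2-fold on this scale, and it did not.

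**Figure D2:**
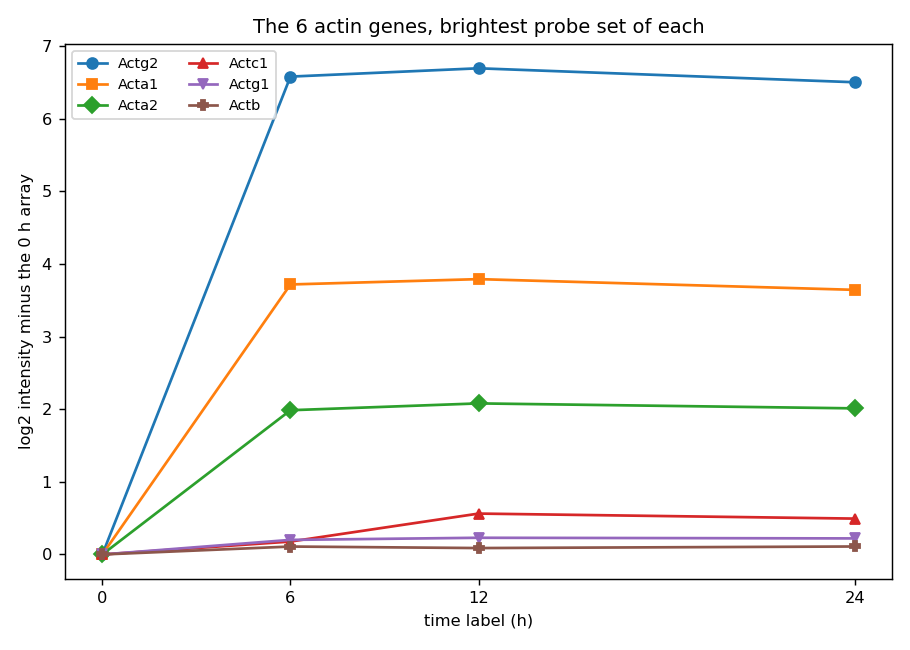
Log2 intensity minus that of the 0 h array (vertical axis) against the time label in hours for the brightest probe set of each of the 6 actin genes, with 1 array at each time. Actg2 lies near 6.6, Acta1 near 3.7 and Acta2 near 2.0 at all 3 insulin times, while Actc1, Actg1 and Actb stay below 0.6. The genes start from unlike 0 h intensities, and a bright 0 h value leaves less room for a difference.

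The small actin-binding proteins of differentiated smooth muscle were also far higher on the insulin arrays than at 0 h. Tagln, which encodes transgelin (SM22 alpha), had 194 at 0 h and 15497, 15878 and 14966 on the insulin arrays, ratios of 80.0, 82.0 and 77.3. Its 0 h value was above the filter value, so its ratio is the largest in the set that did not involve a value under that line. Cnn1, the smooth muscle calponin, had 36.0 at 0 h and 2612, 2908 and 2659 on the insulin arrays. Its ratios were 72.5, 80.7 and 73.8, or 39.5, 43.9 and 40.2 with the 0 h value raised to the filter value. Both genes have a single probe set and no second reading on these arrays. Ranked by mean log2 difference among the 19910 probe sets above the filter, Tagln was 14th from the top.

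The tropomyosins differed from 0 h by smaller ratios. Their brightest probe sets were already bright at 0 h, which leaves less room below the highest deposited value of 31292. Tpm1 encodes an alpha tropomyosin with many splice forms in muscle and other cells. Its brightest probe set (1423049_a_at) had 4676, 14799, 13350 and 12635 at 0, 6, 12 and 24 h, and the next (1423721_at) had 3747, 12419, 12560 and 12096. They gave ratios of 3.17, 2.86 and 2.70 and of 3.31, 3.35 and 3.23. Another (1456623_at) had 127, 251, 222 and 292, with ratios of 1.98, 1.75 and 2.30, and it passed 2-fold at 24 h but not at 6 or 12 h. The last (1447713_at) stayed between 12.0 and 14.3 on all arrays. The annotation used here does not say which splice forms these probe sets read.

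Tpm2, which encodes the beta tropomyosin of muscle, was higher on the insulin arrays by all 4 of its probe sets. The brightest (1419738_a_at) had 2433, 11987, 13305 and 12756 at 0, 6, 12 and 24 h, and the next (1425028_a_at) had 1028, 7309, 8395 and 7645. Their ratios to 0 h were 4.93, 5.47 and 5.24 and 7.11, 8.17 and 7.44. A further probe set (1449577_x_at), some of whose probes can match other sequences, had 286, 1101, 1603 and 1484. The dimmest (1419739_at) had 75.5, 121, 134 and 132, and its ratios of 1.61, 1.77 and 1.75 missed 2-fold. The 4 probe sets of Tpm2 agreed in order, with 0 h lowest, 6 h next and 12 h highest.

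Both myosin genes were higher on the insulin arrays than at 0 h, Myl9 by the larger ratio. Myl9, whose product is phosphorylated to start smooth muscle contraction, had 357 at 0 h and 9233, 9428 and 9072 at 6, 12 and 24 h, ratios of 25.9, 26.4 and 25.4. Myh11, the smooth muscle myosin heavy chain and the strictest marker of mature smooth muscle, was close to the filter value. Its main probe set (1448962_at) had 24.9 at 0 h and 169, 178 and 186 on the insulin arrays, ratios of 6.76, 7.13 and 7.47. The ratios were 2.55, 2.69 and 2.81 with the 0 h value raised to the filter value. The other Myh11 probe set (1418122_at) had 23.5, 21.6, 22.5 and 22.8 and stayed below the filter value on all arrays. A higher Myh11 signal therefore rests on a single probe set.

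Fhl1, a LIM-domain protein of muscle that binds at sarcomeres and stress fibres, completed the set. Its bright probe set (1417872_at) had 31.4 at 0 h and 2685, 2581 and 2571 on the insulin arrays. The ratios were 85.4, 82.1 and 81.7, or 40.6, 39.0 and 38.8 with the 0 h value raised. Its other probe set (1459003_at) had 22.2, 21.0, 20.1 and 22.7 and was below the filter value on all arrays. With the mean of both probe sets the log2 difference was 3.17, 3.11 and 3.19, against 6.42, 6.36 and 6.35 by the bright probe set.

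Over the 10 member genes, each read by its brightest probe set, the median log2 difference from 0 h was 4.21 at 6 h, 4.26 at 12 h and 4.16 at 24 h. The members ranged from 1.66 to 6.58 at 6 h, from 1.51 to 6.69 at 12 h and from 1.43 to 6.50 at 24 h. The median over all 11661 genes above the filter was 0.01, 0.03 and -0.000118. Of those genes 10.6%, 11.7% and 11.1% passed 2-fold upward at the 3 times, against 10 of 10 member genes. By that size 4.62%, 5.31% and 4.82% were lower, against 0 of 10. Actg2, Cnn1, Fhl1 and Myh11 were below the filter value at 0 h and had to be higher on the insulin arrays to be kept. The members were also chosen with earlier results of these data known, so 10 of 10 is no test against the share over all genes. The main probe sets of Tagln, Myl9, Acta1, Tpm2, Acta2 and Tpm1 were above the filter value at 0 h, and their ratios ran from 2.70 for Tpm1 at 24 h to 82.0 for Tagln at 12 h. With the mean of all probe sets of a gene, Tpm1 had log2 differences of 1.11, 0.97 and 1.07 and was no longer 2-fold higher at 12 h, and Myh11 fell below the filter and gave no value.

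Between insulin arrays the highest value of a contractile gene, by its main probe set, was between 1.04 and 1.17 times the lowest. No member probe set was 1.5-fold apart in either direction at 12 h against 6 h, 24 h against 6 h or 24 h against 12 h. Of the 19910 probe sets above the filter, 0.909% were higher and 0.668% lower by that size at 12 h against 6 h, 1.4% and 0.492% at 24 h against 6 h, and 0.151% and 0.0804% at 24 h against 12 h. Without the filter these shares were 0.69% and 0.567%, 1.07% and 0.449%, and 0.203% and 0.137%. So few probe sets differed by that size that a count of 0 among 20 is near the background. The widest gap among the 16 probe sets above the filter was that of the Tpm2 probe set 1449577_x_at, 1.46-fold higher at 12 h than at 6 h and 1.35-fold higher at 24 h than at 6 h. Next came the Tpm1 probe set 1456623_at, 1.32-fold higher at 24 h than at 12 h, and the Tpm1 probe set 1423049_a_at, whose 6 h value was 1.17-fold its 24 h value.

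**Figure D3:**
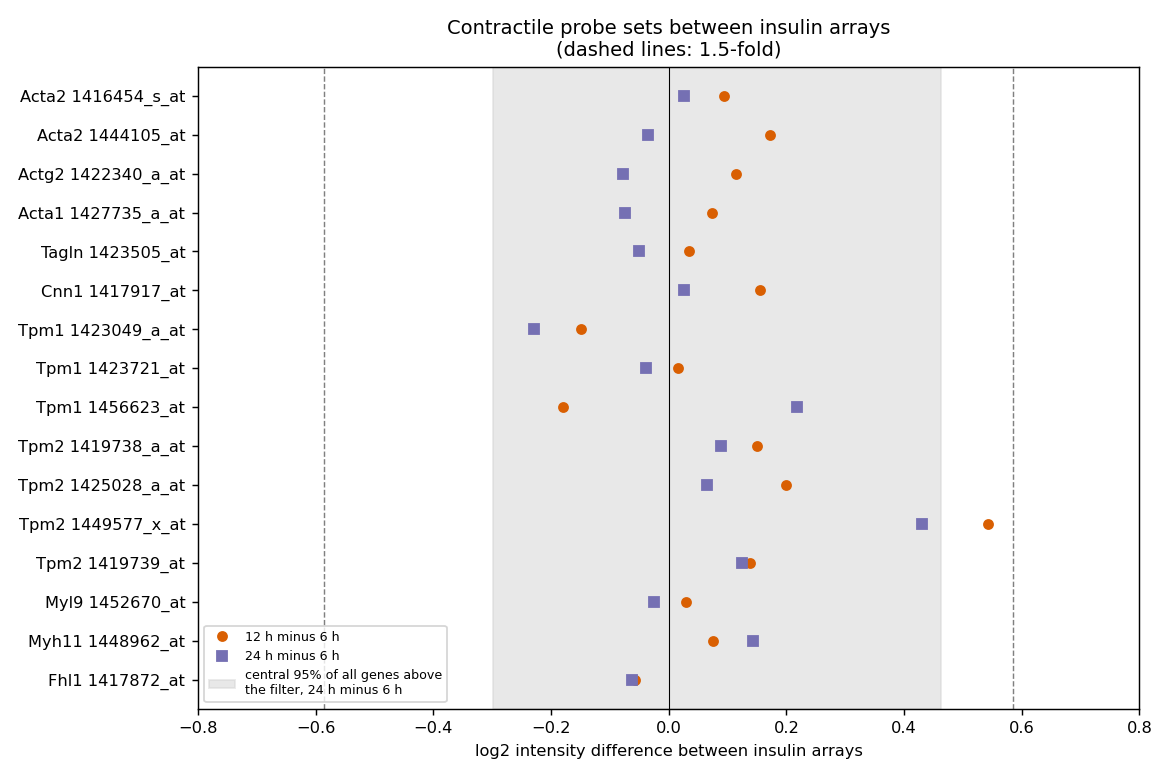
Log2 intensity difference of the 12 h array (circles) and of the 24 h array (squares) from the 6 h array for the 16 member probe sets above the filter. The grey band holds the central 95% of 11661 genes for 24 h minus 6 h and the dashed lines mark 1.5-fold. All points lie inside the dashed lines, and only the 12 h point of the Tpm2 probe set 1449577_x_at lies outside the band.

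The order of the insulin arrays was shallow. By the brightest probe set 7 of the 10 genes were highest at 12 h (Acta2, Actg2, Acta1, Tagln, Cnn1, Tpm2 and Myl9), Tpm1 and Fhl1 were highest at 6 h and Myh11 at 24 h. Among genes above the filter 40.2% were highest at 12 h. With each array centred on its median the count was 5 of 10 against 27.7%. The median ratio of the highest to the lowest insulin array was 1.11 for the members and 1.11 for all genes above the filter, so the members were spread over these arrays about as much as other genes. Whether an order this shallow exceeds the error of an array was not tested.

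Other genes of the contractile apparatus were 2-fold higher than at 0 h in part. The list held smooth muscle proteins, actin crosslinkers, focal adhesion and LIM proteins, non-muscle myosins and subunits of myosin phosphatase. Among its 36 genes above the filter, 15 at 6 h, 16 at 12 h and 16 at 24 h were 2-fold higher or more and 0 were 2-fold lower, with medians of 0.78, 0.79 and 0.88 on the log2 scale. Of all genes above the filter 10.6%, 11.7% and 11.1% were 2-fold higher at these times and 4.62%, 5.31% and 4.82% lower. Among those counted as higher, Itga1, Lmod1, Synpo2, Pdlim3 and Ppp1r14a were below the filter value at 0 h and were kept only through the insulin arrays. Itga1, a collagen-binding integrin chain, was below the filter value at 0 h and 9.98, 13.9 and 10.9-fold higher at 6, 12 and 24 h, and Itga8, an integrin chain of smooth muscle and mesenchyme, had 118, 783, 846 and 846. Csrp1, a LIM protein of smooth muscle, had 615, 4180, 4298 and 4007, and Lmod1, the actin nucleator leiomodin of smooth muscle, had 41.6, 204, 229 and 219. The genes Des and Mylk were chosen after their values were seen. Des, the muscle intermediate filament desmin, had 111, 92.0, 90.9 and 89.3, and Mylk, the kinase that phosphorylates the regulatory light chain, had 549, 582, 757 and 796.

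SRF and its cofactors, which are known to drive the programme, differed from 0 h by smaller ratios than most members. The genes given here were chosen after their values were seen. Srf had 284, 504, 458 and 462 at 0, 6, 12 and 24 h. Mrtfa, which encodes the MRTF-A cofactor, had 289, 539, 665 and 600, and Mical2, an actin oxidase that promotes nuclear MRTF, had 92.0, 248, 234 and 238. Mrtfb, the gene of the related cofactor MRTF-B, had 1133, 969, 910 and 922, and was lower on each insulin array than at 0 h. Myocd, the myocardin gene of committed smooth muscle, had 27.7, 26.1, 30.2 and 26.4 and stayed below the filter value on all arrays.

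TGF-beta pathway genes and matrix genes of fibroblasts were partly higher. Of 14 TGF-beta pathway genes, 6 passed 2-fold upward at each time and 0 downward, and the median log2 differences were 0.91, 0.88 and 0.97. Of all genes above the filter 10.6%, 11.7% and 11.1% were 2-fold higher at 6, 12 and 24 h and 4.62%, 5.31% and 4.82% lower. Ccn2, a matricellular target of TGF-beta and of YAP, had 304, 10897, 12899 and 12544 at 0, 6, 12 and 24 h. Tgfb3 was 6.75, 7.54 and 6.76-fold higher, and the latent TGF-beta binding protein genes Ltbp1 and Ltbp2 were 5.07, 5.02 and 6.07-fold and 4.96, 6.18 and 6.80-fold higher. Of 14 fibroblast and myofibroblast matrix genes 4 were higher and 1 lower by that size at each time, with median log2 differences of 0.68, 0.66 and 0.65. Cthrc1, a secreted protein of activated fibroblasts, had 32.0, 2002, 1732 and 1802, and Fap, a surface protease of activated fibroblasts, had 69.1, 977, 1281 and 1579. The Cthrc1 value at 0 h was below the filter value. Tnc, the matrix protein tenascin C, was 12.7, 12.4 and 12.5-fold higher, and Thy1, a surface protein of fibroblasts, was 6.80, 6.94 and 6.59-fold higher. Postn, the matrix protein periostin, was named after its values were seen and had 12930, 13778, 13481 and 13988, while the lower gene was Pdgfra, a growth factor receptor gene of mesenchymal progenitors, with 6099, 1699, 2090 and 2254. Periostin is itself used as a myofibroblast marker, and its signal was at most 1.08-fold above 0 h.

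**Figure D4:**
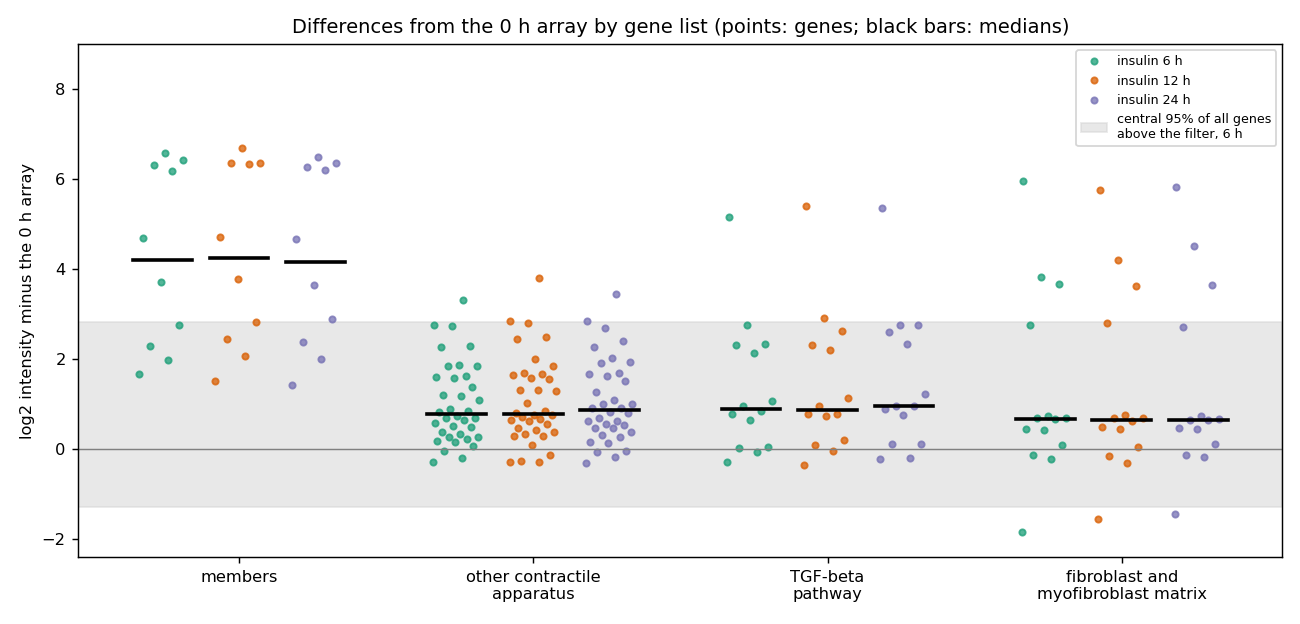
Log2 intensity minus that of the 0 h array (vertical axis) for the member genes and for 3 related lists, with 1 point per gene above the filter at each insulin time and black bars at the medians. The grey band holds the central 95% of 11661 genes at 6 h. The band refers to single genes at 6 h and not to medians. The member medians lie near 4.2 and the medians of the related lists lie between 0.65 and 0.97.

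Markers of other cell types were read on the same arrays. The osteoblast markers read here were present on the insulin arrays, with 6 of 6 above the filter, a summed intensity of 34992 at 0 h and between 54419 and 64662 on the insulin arrays, and 3 of the 6 (Sp7, Alpl and Pth1r) below the filter value at 0 h. Runx2, Bglap and Spp1 were planned as osteoblast markers too, but had no probe set annotated to a single symbol and were not read. Most of each osteoblast sum came from Col1a1 and Col1a2, with 13802 and 20828 at 0 h and 21001 and 23219 at 6 h. Of the 2 Col1a1 probe sets above the filter, 1 pointed the other way. Ibsp, the bone sialoprotein gene, had 202, 8849, 11705 and 13147 at 0, 6, 12 and 24 h. Defining genes of striated muscle, such as Myod1 and Myog, were mostly below the filter value. Of 11 skeletal muscle markers 9 were below the filter, with sums of 440 at 0 h and 450 to 479 on the insulin arrays, and 4 of 6 cardiac markers were, with sums of 257 and of 258 to 288. Smooth muscle markers outside the member set had sums of 10998 at 0 h and of 14563 to 15524 on the insulin arrays, with 6 of 8 above the filter, and Lmod1 and Synpo2 were 2-fold higher at all 3 times. Of these 8 genes all but Myocd are also in the list of the contractile apparatus. Most of each smooth muscle sum came from Cald1, with 9990 at 0 h and 13125, 13530 and 13778 at 6, 12 and 24 h. Lmod1 and Synpo2 were below the filter value at 0 h, and Myocd and Kcnmb1 were below it on all arrays. Pericyte markers, of the mural cells of small vessels, had sums of 5291 and of 6068 to 6619, and 4 of 7 (Cspg4, Mcam, Notch3 and Rgs5) were at least 2-fold higher at all 3 times. Most of each sum came from Pdgfrb, with 4977, 4882, 5317 and 5307 at 0, 6, 12 and 24 h. Cspg4, Mcam and Rgs5 were below the filter value at 0 h and were kept only through the insulin arrays. Of all genes above the filter 10.6%, 11.7% and 11.1% were 2-fold higher at 6, 12 and 24 h. Endothelial markers had sums of 193 and of 192 to 225, with 3 of 4 below the filter. Macrophage markers also moved with the contractile genes against 0 h, with sums of 512 at 0 h and of 4745, 5919 and 6703 at 6, 12 and 24 h, and all 4 above the filter (Lyz2, Cd68, Csf1r and Adgre1) were 2-fold higher at all 3 times. Of these, Cd68 was below the filter value at 0 h. The part of the macrophage markers in the contractile differences was not tested. In RNA from whole cultures, fewer cells of a type and less RNA per cell cannot be told apart.

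**Figure D5:**
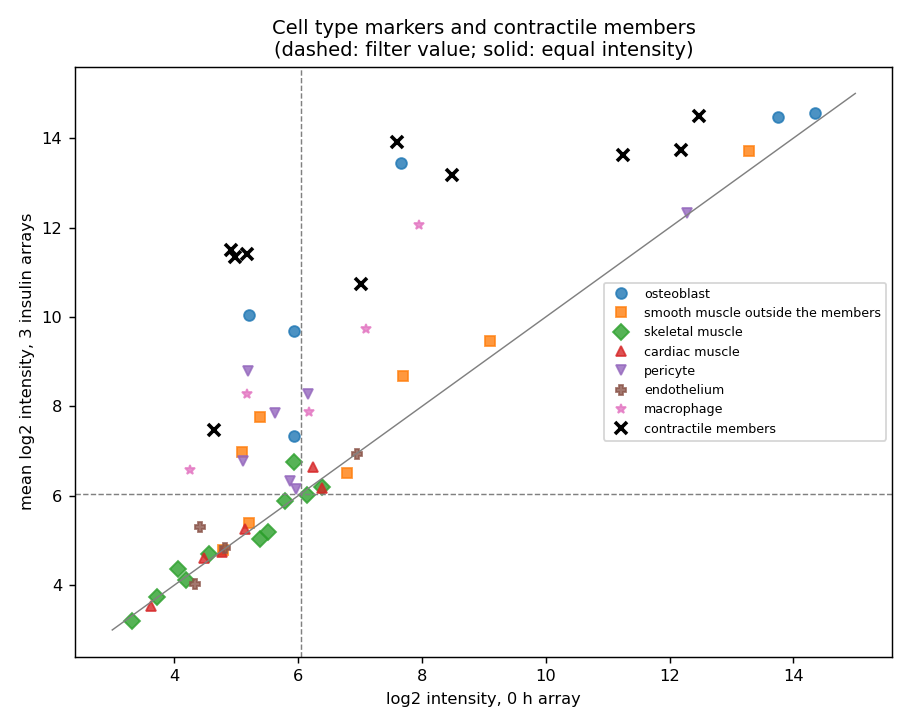
Mean log2 intensity over the 3 insulin arrays (vertical axis) against log2 intensity on the 0 h array (horizontal axis), 1 point per gene, for 7 lists of cell type markers and for the 10 contractile genes (crosses). Dashed lines mark the filter value of 66.2 and the solid line equal intensity. All crosses lie above the solid line, with the macrophage and several osteoblast and pericyte markers also above it. Most skeletal, cardiac and endothelial markers lie close to it. The skeletal marker Actn3 and the endothelial marker Tek lie 0.83 and 0.88 above it.

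Genes with the most similar differences from 0 h were sought for an Actg2 pattern and an Acta2 pattern, by the root mean square distance of the log2 differences over the 3 insulin times. Nearest to Actg2 were Zic1, a zinc finger transcription factor gene (0.15), Grb10, an adaptor of the insulin receptor (0.22), the member Fhl1 (0.23) and Tnmd, the tendon glycoprotein tenomodulin (0.25). Nearest to Acta2 were Adh1, an alcohol dehydrogenase gene (0.04), Mocos (0.05), the TGF-beta coreceptor gene Eng (0.05) and Rragd, a Rag GTPase gene of amino acid sensing (0.05). Actg2 and its neighbours Zic1, Grb10, Fhl1 and Tnmd were all below the filter value at 0 h and were kept only through the insulin arrays. Of the Acta2 neighbours, Mocos and Rragd were below it at 0 h too, while Adh1 and Eng were above it. Every distance to Actg2 therefore rests on dim 0 h readings. The distances rest on 3 differences that share the 0 h array, and a gene with a similar step from 0 h is close whatever its function.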

How the data were processed

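The authors deposited 1 intensity per probe set and array, and the submitters' processing notes name RMA, which corrects background, normalizes arrays and summarises probes. The software, its version and the genome build: not given in the sources used here. Deposited values ran from 7.34 to 31292, so log2 was taken. Array medians lay between 64.97 and 65.75. Of 45101 probe sets 64 were controls and 34945 had 1 symbol in the platform annotation, which can be old. Differences of dim probe sets are understated by RMA, and detection calls were not used here.

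Members and lists were chosen with earlier results of these data known. All members and member probe sets are named. From each related list up to 4 genes above the filter with the largest mean difference of at least 2-fold are named, with every actin, the 4 nearest patterns and 4 check genes. Predicted transcripts were passed over among the nearest patterns, and some genes outside this rule are marked in the text. Others outside it make up most of a sum, lie below the filter value, differ from the rest of their list or could not be read.

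Without replicates there was no test: log2 intensities were subtracted and probe sets past 2-fold (1.5-fold between insulin arrays) counted. Related lists used the brightest probe set of each gene, and 1 planned list is not reported here. Alternatives were other folds and filters, median centring, quantile normalization, dim values raised to the filter value, the median difference of each chromosome removed, means of probe sets, and suffixed probe sets left out. Scripts were tested on simulated data with known changes. Python 3.11.15, numpy 2.4.6, pandas 2.3.3 and matplotlib 3.10.9 were used.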

Additional observations from a re-analysis of the deposited data

Results flagged for a closer look

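The probe set 1447713_at of Tpm1 had log2 differences from 0 h of 0.0505 at 6 h, -0.198 at 12 h and -0.0551 at 24 h, and the probe set 1459003_at of Fhl1 had -0.0816, -0.142 and 0.0315. They are listed because the sign was not the same at all times. Both stayed below the filter value on all 4 arrays, and with 1 array at each time the difference between times was not tested.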

How the results depend on the processing

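No paired analysis was possible because each group has 1 array. No median or single-gene difference changed sign under an alternative that gave it a value. Counts have no sign to change, and Myh11 gave no value with means of probe sets. With suffixed probe sets left out, the member probe sets at least 2-fold higher numbered 7, 7 and 8 at 6, 12 and 24 h, since fewer probe sets were counted, and the member medians were 3.89, 4.00 and 3.86. Of the unsuffixed ones above the filter, only 1419739_at of Tpm2 and, at 6 and 12 h, 1456623_at of Tpm1 missed 2-fold. With the 75th percentile as the filter the medians were 4.69, 4.72 and 4.67, and averaging the probe sets of each gene gave 3.72, 3.79 and 3.64. At the lowest fold tried, 1 member probe set was apart in each comparison between insulin arrays. At 1.5-fold the TGF-beta list had 10 in place of 6 and the matrix list 8 in place of 4. The contractile apparatus list had 15 genes 2-fold higher at all 3 times, and 10 with the 75th percentile filter or with means of probe sets. Markers of skeletal and cardiac muscle, pericytes, endothelium and macrophages that were higher at all times numbered 8, and 2 with the 75th percentile filter and 5 without suffixed probe sets. For the counts under these alternatives no share over all probe sets or genes was computed. Of single-gene differences 41 of 147 moved by more than 0.15 on the log2 scale, the standard deviation of the 24 h minus 12 h differences. With dim values raised, Actg2 had 5.36 to 5.55, Cnn1 5.30 to 5.46, Fhl1 5.28 to 5.34 and Myh11 1.35 to 1.49. Signal over background limits these 4 genes at 0 h.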
